A study of Mus musculus with 2 samples.

Results

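The clustered protocadherin genes were described in single-cell RNA-seq of cells sorted from injured tibialis anterior muscle of mice, a hindlimb muscle that regenerates from its resident stem cells. The members are the 14 alpha, 22 beta and 22 gamma genes of the locus on mouse chromosome 18, chosen by their gene symbols. They make 58 of the 55487 gene identifiers listed, under 57 distinct symbols, because Pcdha11 is carried by 2 identifiers. One library came from wild-type (WT) mice and 1 from mice of the conditional Setdb1 knockout (Setdb1-cKO, here KO), both 8 to 12 weeks old. Setdb1 is a histone methyltransferase that places repressive methylation on lysine 9 of histone H3. Neither the Cre driver, how many animals went into each library, the kind of injury nor the day after it is stated in the labels. Cells of both libraries were stained with Hoechst and propidium iodide, sorted, and made into libraries with the 10x Genomics 3′ v2 chemistry, which reads the end of each captured RNA.

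Clustered protocadherins are cadherin-like adhesion proteins that bind an identical copy of themselves on the neighbouring cell. They are best known in the nervous system, where each neuron uses its own set of them, and neurites that carry the same set recognise each other as self. Each alpha and gamma gene has a large variable first exon with its own promoter, spliced to constant exons that all genes of the cluster share, while a beta gene is typically a single exon. The choice of promoter is known to involve CTCF, cohesin and DNA methylation of the promoters, and the last genes of the clusters (Pcdhac1, Pcdhac2 and the gamma-C genes) are regulated apart from the others.

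On GRCm38 with the GENCODE M21 annotation, all members lie on the plus strand, and the 3 families follow each other. The alpha genes span chromosome 18 from 36930184 to 37187661, the beta genes from 37264938 to 37524479 and the gamma genes from 37661793 to 37841873. The shared exons limit what 3′ reads can tell apart. The 3′ end of every one of the 14 alpha and 22 gamma genes lay in sequence shared with other members, whereas 21 of the 22 beta genes had a 3′ end of their own. The exception was Pcdhb21, whose end lies inside an exon annotated to Pcdhb22, so the values of this pair are uncertain. The median share of a gene's exonic bases that no other member covered was 46.6% for alpha, 100% for beta and 55.3% for gamma genes. Overlap with genes other than the members is not counted in this share. Gm42416, Gm37013 and Gm37388, protein-coding models on the plus strand, start within the alpha cluster and end within the gamma cluster. The labels do not state how reads in shared exons were counted, so a single alpha or gamma gene counts only those of its RNA molecules that the counting could place, and levels are not compared between families or genes. Gm26672, a transcript model on the minus strand, lies opposite the starts of Pcdhga10, Pcdhgb7, Pcdhga11, Pcdhgb8 and Pcdhga12. The antisense model BC037039 overlaps Pcdhgc3. Whether counting used the strand is not stated either.

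With barcodes of 2000 or more unique molecular identifiers (UMIs, which count each captured RNA molecule once) and doublets removed, 7489 WT and 9988 KO cells remained, with medians of 10614 and 7867.5 UMIs. They shared 18 cell barcodes. Levels are given as CPM, the UMIs of the members in the summed cells of a class, scaled to 1e6 UMIs. With 1 library per group there is no replicate check, no test was run and no p-value exists, so the 95% intervals in square brackets cover counting error only, and a difference in cells cannot be told apart from one between 2 preparations. Setdb1 itself was at 18.1 CPM in WT and 8.92 CPM in KO myogenic-like cells (241 and 92 UMIs, ratio of KO to WT 0.494 [0.384 to 0.630]). It was not lower in the other large classes, with ratios of 1.19 in fibro-adipogenic-like, 1.10 in endothelial-like and 1.23 in mononuclear phagocyte-like cells. Fibro-adipogenic-like cells made up 10.5% of the WT and 24.1% of the KO cells, and most of the KO cells of this class sat in a cluster that held 5 WT and 1270 KO cells. With at least 5000 UMIs per cell the class held 777 of 6345 WT and 870 of 6411 KO cells, so the gap in its share depends on the UMI minimum. Myogenic-like cells made up 9.44% and 7.23%. The size of the KO myogenic class also depends on the processing: 722 of 9988 KO cells became 422 of 10044 with a mitochondrial share of up to 20%, 517 of 10947 with no doublet removed and 412 of 9988 with members left among the variable genes.

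Over all cells, 48 of the 58 members had a UMI, and 8017 UMIs fell on them. Few UMIs were placed on alpha genes, 16 in WT and 21 in KO. Pcdhac2, the last alpha gene, held 13 and 18 of these. The 10 members with no UMI in any cell were Pcdha1, Pcdha2, Pcdha3, Pcdha4, Pcdha6, Pcdha7, Pcdha12, 1 of the 2 Pcdha11 identifiers, Pcdhac1 and Pcdhb1. The few alpha UMIs came mainly from connective tissue: tenocyte-like cells held 3 and 12, and fibro-adipogenic-like cells 10 and 8. The beta and gamma families were well covered, with 1565 and 1773 beta UMIs and 1934 and 2708 gamma UMIs.

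The beta genes together stood highest in endothelial-like cells, at 60.5 CPM in WT [55.4 to 65.9] and 61.9 CPM in KO [57.2 to 67.0]. Fibro-adipogenic-like cells (32.6 and 27.6 CPM), tenocyte-like cells (34.2 and 30.4 CPM) and mural-like cells (30.7 and 29.0 CPM) followed with levels close to each other. WT myogenic-like cells, at 26.0 CPM [23.4 to 28.9], stood near this group, and KO myogenic-like cells, at 9.70 CPM [7.89 to 11.8], stood below it. Among the stromal and vascular classes, the gamma sums stood highest in fibro-adipogenic-like cells (55.5 and 45.5 CPM) and tenocyte-like cells (53.7 and 46.7 CPM), then in endothelial-like cells (37.6 and 45.8 CPM), and lowest in mural-like cells (19.4 and 22.3 CPM). KO myogenic-like cells, at 55.0 CPM [50.6 to 59.7], were level with WT fibro-adipogenic-like cells, while WT myogenic-like cells were at 32.8 CPM [29.8 to 36.0].

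Blood-derived cells had few member UMIs. Mononuclear phagocyte-like cells, the largest class, had 0.448 CPM of beta and 1.68 CPM of gamma genes in WT, and 0.890 and 2.36 CPM in KO. Dendritic-like cells had 0.967 CPM of each family in WT. Barcodes of 20 to 100 UMIs, which hold free RNA, carried 11.1 CPM of beta and 13.6 CPM of gamma genes in WT (13 and 16 UMIs), and 12.8 and 30.3 CPM in KO (19 and 45 UMIs). Free RNA thus carried a higher share of gamma UMIs in the KO library, while the called phagocyte-like cells of both libraries stood below the free RNA. In all, endothelial-like, fibro-adipogenic-like and myogenic-like cells gave 33.1%, 36.4% and 22.2% of the WT beta UMIs and 35.2%, 45.7% and 5.64% of the KO beta UMIs.

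**Figure D1:**
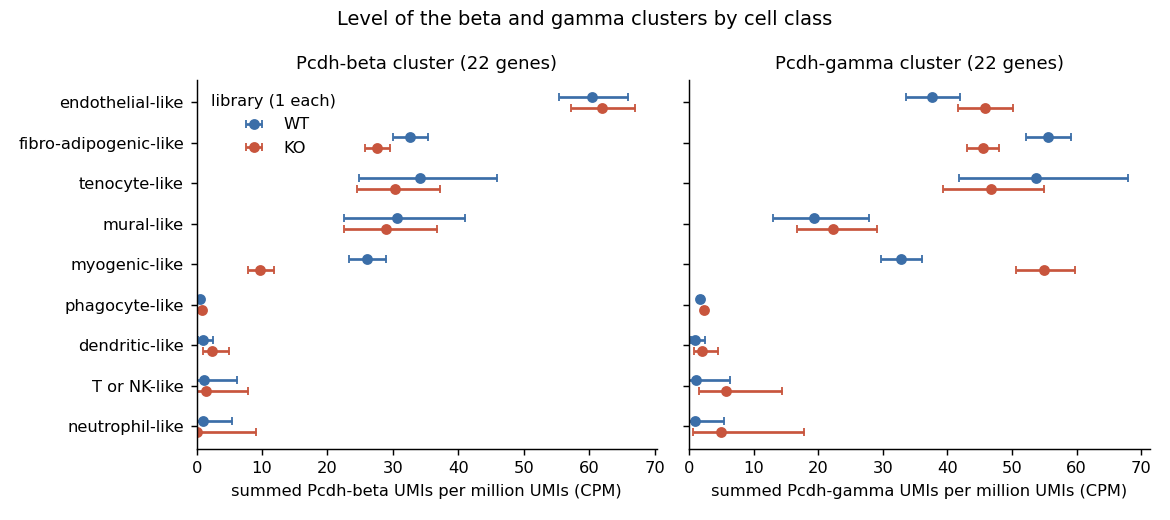
Summed levels of the beta and gamma genes (CPM, with exact 95% Poisson intervals) in each cell class of at least 50 cells per library, for the WT and the KO library. In myogenic-like cells beta was lower (26.0 and 9.70 CPM) and gamma higher (32.8 and 55.0 CPM) in KO, and neither interval of the ratio held 1. Mural-like cells (ratios 0.945 [0.642 to 1.40] and 1.15 [0.719 to 1.88]) had the same directions, with intervals that held 1. So did neutrophil-like cells, on 1 and 0 beta and 1 and 2 gamma UMIs.

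In myogenic-like cells the families went opposite ways. Beta genes had 347 UMIs in 707 WT cells and 100 UMIs in 722 KO cells, a ratio of 0.373 [0.295 to 0.467]. Gamma genes had 437 and 567 UMIs, a ratio of 1.68 [1.48 to 1.91]. The sum over all members hid this, with 58.9 CPM in WT and 64.8 CPM in KO (ratio 1.10 [0.991 to 1.22]). The quotient of gamma to beta UMIs was 1.26 in WT and 5.67 in KO, which is 4.50 times higher [3.49 to 5.81]. This quotient uses no library total. It was 0.622 and 0.739 in endothelial-like cells (1.19 times [0.989 to 1.43]) and 1.70 and 1.65 in fibro-adipogenic-like cells (0.967 times [0.844 to 1.11]).

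The myogenic difference was compared with the same difference in other classes as a ratio of their ratios. For the beta sum it was 0.440 [0.344 to 0.563] against fibro-adipogenic-like, 0.364 [0.283 to 0.468] against endothelial-like, 0.420 [0.275 to 0.640] against tenocyte-like and 0.394 [0.255 to 0.609] against mural-like cells. For the gamma sum it was 2.05 [1.76 to 2.38] against fibro-adipogenic-like, 1.38 [1.14 to 1.67] against endothelial-like and 1.93 [1.41 to 2.64] against tenocyte-like cells. Against mural-like cells, whose counts were low, the interval held 1 (1.46 [0.911 to 2.33]). All 4 intervals for beta lay below 1, and 3 of the 4 for gamma lay above it.

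Of the 58 members, 45 had a UMI in myogenic-like cells, 31 had at least 10 UMIs over both libraries, and 24 at least 20. Among the 10 beta genes with at least 20 UMIs, 6 stood at 0.5 times WT or less and none at 2 times or more. Of all genes of 20 or more UMIs in this class, 4.49% stood at 0.5 times or less, and of those with 20 to 200 UMIs, the range most members fall in, 8.45%. Among the 14 gamma genes with at least 20 UMIs, 7 stood at 2 times WT or more and 1, Pcdhga6, at 0.5 times or less. The background for 2 times or more was 7.56% of all genes and 13.6% of those with 20 to 200 UMIs. On the scale of log2(CPM + 5), which understates low genes, the median difference was -0.23 for the beta and 0.20 for the gamma genes, against 0.04 over all genes.

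Of the 13 beta genes with at least 10 UMIs, 12 had a ratio below 1, and the interval lay below 1 in 6. Of all genes with at least 20 UMIs in this class, 55.2% had a ratio above 1. No share over all genes was counted at 10 UMIs or for the intervals. Pcdhb7 differed most among the beta genes named by count, with 44 WT and 3 KO UMIs (3.30 and 0.291 CPM, ratio 0.0882 [0.0175 to 0.275]). It lies at 37341702 to 37345202, has 100% of its exonic bases to itself, and 31 of its 44 WT UMIs came from the stem-state-like cells described further on. Pcdhb21 had 22 and 3 UMIs (1.65 and 0.291 CPM, ratio 0.176 [0.0338 to 0.587]), Pcdhb16 27 and 6 (0.287 [0.097 to 0.711]), and Pcdhb20 30 and 8 (0.345 [0.137 to 0.770]). Pcdhb4, with 15 and 3 UMIs, and Pcdhb9, with 16 and 1, complete the 6 and are named because of their values. Pcdhb9, at 0.0808, had the lowest ratio of the 13.

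Another group of beta genes was lower by less than its counting error excludes. Pcdhb17 had 37 and 16 UMIs (2.78 and 1.55 CPM, ratio 0.559 [0.290 to 1.03]), Pcdhb14 26 and 10 (0.497 [0.214 to 1.07]), Pcdhb5 27 and 12 (0.575 [0.265 to 1.17]), Pcdhb18 19 and 6 (0.408 [0.133 to 1.06]) and Pcdhb19 21 and 10 (0.616 [0.259 to 1.37]). Pcdhb22, the last gene of the cluster, was the exception, with 13 and 14 UMIs and a ratio of 1.39 [0.607 to 3.22]. Split by order along the locus, a split made after the values were seen, the first 11 beta genes together had 137 and 26 UMIs (0.245 [0.155 to 0.375]) and the last 11 had 210 and 74 (0.456 [0.345 to 0.597]).

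The gamma difference was largest at the downstream end of the A and B genes. Of the 18 gamma genes with at least 10 UMIs, 12 had a ratio above 1, as did 55.2% of all genes with at least 20 UMIs. The interval lay above 1 in 8 of the 18 and below 1 in 1, and no share over all genes was counted for the intervals. Pcdhga10, at 37746993 to 37841873, had 14 UMIs in 13 WT cells and 94 UMIs in 74 KO cells, 1.05 against 9.12 CPM and a ratio of 8.68 [4.93 to 16.5]. Pcdhga12, the last of the A genes, had 14 UMIs in 12 WT cells and 67 in 60 KO cells (1.05 and 6.50 CPM, ratio 6.19 [3.44 to 11.9]). Their neighbours followed: Pcdhgb5 had 15 and 43 UMIs (3.71 [2.02 to 7.18]), Pcdhga11 16 and 42 (3.39 [1.87 to 6.47]), and Pcdhgb7 4 and 15 (4.85 [1.55 to 20.1]). Pcdhga10 held 3.20% of the gamma UMIs of the class in WT and 16.6% in KO, and Pcdhga12 held 3.20% and 11.8%. Gm26672, the model opposite the starts of Pcdhga10, Pcdhgb7, Pcdhga11 and Pcdhga12, had 7 and 21 UMIs (3.88 [1.59 to 10.8]). Its part in their values was not tested.

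The upstream A and B genes were mixed. Of those named here, Pcdhga5, Pcdhga6 and Pcdhga7 had ratios below 1, and Pcdhga3 and Pcdhgb2 had ratios above 1. The others are given only within the sum below. Pcdhga5 had 48 WT and 22 KO UMIs (3.60 and 2.13 CPM, ratio 0.593 [0.341 to 1.00]) and Pcdhga6 had 23 and 7 (0.394 [0.143 to 0.947]), the only gamma gene of at least 10 UMIs whose interval lay below 1. Pcdhga7 (21 and 14 UMIs, 0.862 [0.406 to 1.78]) and Pcdhga3 (14 and 15 UMIs, 1.39 [0.624 to 3.10]) had intervals that held 1. Pcdhgb2, with 5 and 17 UMIs, had an interval above 1, at 4.40 [1.56 to 15.2]. Within the downstream stretch, Pcdhgb4 (16 and 12 UMIs, 0.970 [0.419 to 2.19]) and Pcdhgb6 (18 and 18 UMIs, 1.29 [0.635 to 2.64]) also had intervals that held 1. Summed in the order of the locus, again a split made after the values were seen, the first 9 A and B genes had 128 and 92 UMIs (0.930 [0.703 to 1.22]), and the last 10, from Pcdhgb4 to Pcdhga12, had 115 and 307 (8.63 and 29.8 CPM, 3.45 [2.78 to 4.32]). The same last 10 genes had ratios of 0.905 in fibro-adipogenic-like and 1.19 in endothelial-like cells.

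The 3 gamma-C genes, which close the cluster, were split. Pcdhgc3 made up 36.4% of the gamma UMIs of the class in WT and 18.7% in KO, with 159 and 106 UMIs (11.9 and 10.3 CPM, ratio 0.862 [0.668 to 1.11]). The interval of its ratio held 1, while its share of the family was lower in KO. Pcdhgc4 had 21 and 36 UMIs (1.58 and 3.49 CPM, ratio 2.22 [1.26 to 4.0]) and Pcdhgc5 had 14 and 26 (1.05 and 2.52 CPM, ratio 2.40 [1.21 to 4.98]). As a group the A genes were at 13.4 and 27.9 CPM (2.08 [1.72 to 2.52]), the B genes at 4.80 and 10.8 CPM (2.24 [1.63 to 3.10]) and the C genes at 14.6 and 16.3 CPM (1.12 [0.905 to 1.38]). Without Pcdhgc3 the gamma ratio was 2.14 [1.84 to 2.50].

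**Figure D2:**
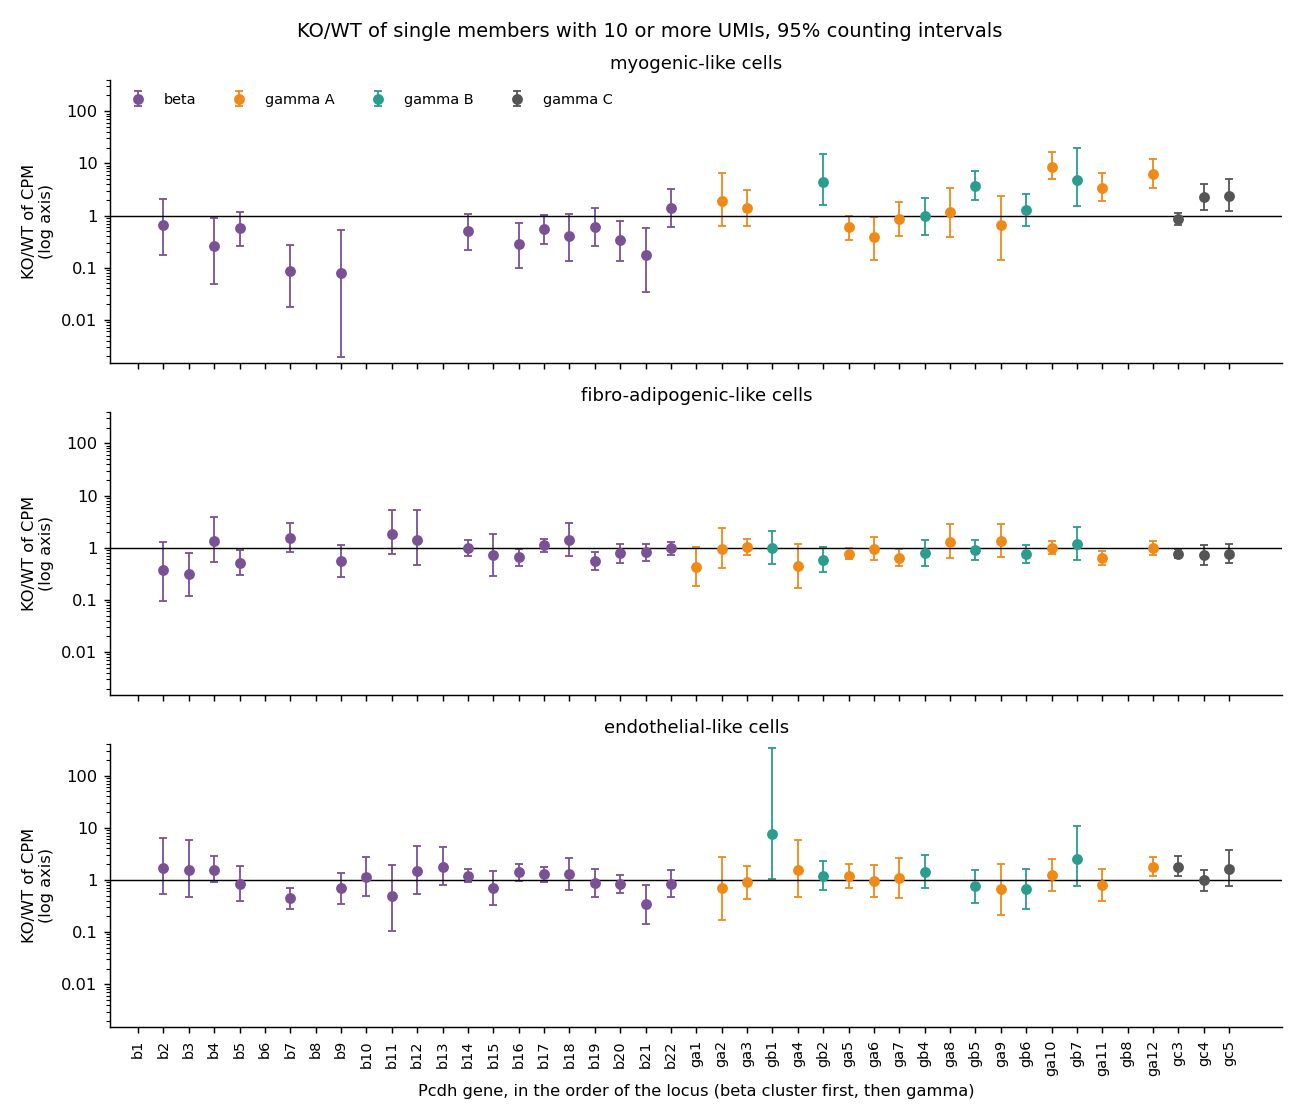
Ratio of KO to WT CPM (log axis, exact 95% intervals) of each beta and gamma gene with at least 10 UMIs over both libraries and 1 or more in each, placed in the order of the locus, in myogenic-like, fibro-adipogenic-like and endothelial-like cells. In myogenic-like cells the beta genes lie mostly below 1, and the points furthest above 1 are Pcdhga10 (8.68) and Pcdhga12 (6.19), while in the other 2 classes these genes lie between 0.985 and 1.80. The high endothelial-like point is Pcdhgb1 (7.65), which rests on 1 and 9 UMIs.

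The WT and KO myogenic-like cells differed in depth and in state, so the sums were also taken within each. The class was made of 3 clusters. One rich in Pax7 and Myf5, transcripts of muscle stem cells, held 534 of the WT but only 222 of the KO cells. The largest number of KO cells lay in 1 whose leading genes include Actc1 and Myog, transcripts of differentiating muscle (55 and 314 cells). In this differentiating cluster median depth was 22138 UMIs in WT and 3781 in KO, so its cells are not alike in depth. Over the class, median depth was 17091 UMIs in WT and 8174.5 in KO, with 30 WT and 295 KO cells between 2000 and 5000 UMIs. Within the stem cell cluster the ratio was 0.454 [0.332 to 0.610] for beta and 2.04 [1.73 to 2.41] for gamma. Within the differentiating cluster it was 0.585 [0.315 to 1.11] and 2.19 [1.37 to 3.68], and within a cluster of dividing cells (118 and 186 cells) 0.504 [0.271 to 0.913] and 1.83 [1.41 to 2.38]. The direction was thus the same in each cluster, and the beta difference was smaller within clusters than over the class.

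Clustered again by itself, the class gave states named by markers. In stem-state-like cells (466 and 151 cells) beta was at 33.0 CPM in WT and 20.1 CPM in KO (0.610 [0.437 to 0.835]) and gamma at 36.7 and 78.8 CPM (2.15 [1.77 to 2.59]). The libraries fill different sub-clusters of this state: 4 of them held 122, 141, 92 and 46 WT but 35, 9, 5 and 3 KO cells, and the other 2 held 34 and 31 WT and 62 and 37 KO cells. In cycling-like cells (116 and 178) beta was at 10.8 and 5.24 CPM (0.485 [0.258 to 0.884]) and gamma at 28.6 and 51.8 CPM (1.81 [1.40 to 2.36]). Of these KO cells, 66 form a shallow sub-cluster with no WT cell (median 2779 UMIs), whose leading genes include Plbd1, Gpnmb and Slamf7 beside the division genes Ccnb1, Nusap1 and Cdkn3. In cycling-like cells of over 10000 UMIs the ratio was 0.466 [0.240 to 0.868] for beta and 1.90 [1.46 to 2.49] for gamma. Differentiating-like cells, only 48 in WT and 98 in KO, had 19.8 and 9.76 CPM of beta (0.494 [0.257 to 0.940]) and 20.6 and 36.6 CPM of gamma (1.77 [1.11 to 2.94]), and 16 of the KO cells form a sub-cluster with no WT cell (median 2859 UMIs). Beta was thus highest in the stem state of both libraries, which held 466 of 707 WT but 151 of 722 KO cells of the class. The beta difference within this state depends on which cells carry its name: with no doublet removed the ratio was 0.987 [0.652 to 1.45], and with at least 5000 UMIs per cell 0.916 [0.601 to 1.35], while gamma stood at 2.90 [2.25 to 3.71] and 2.70 [2.09 to 3.47]. Sub-clusters that stayed unnamed held 77 WT and 295 KO cells. The largest had 4 WT and 139 KO cells (medians 18684 and 3202 UMIs), and its leading genes include Cxcl2, Cd14 and Il1b. Without the unnamed sub-clusters the ratio was 0.418 [0.325 to 0.533] for beta and 1.69 [1.47 to 1.94] for gamma.

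Single genes were then taken within the states. Pcdhb7 had 31 UMIs in WT and 0 in KO stem-state-like cells, which is at least 3.08-fold lower when the KO count is set to a floor of 3 counts over the state. Pcdhga10 had 6 and 30 UMIs there (0.765 and 12.8 CPM, ratio 16.8 [6.88 to 49.4]) and Pcdhga12 10 and 18 (6.05 [2.65 to 14.7]). In cycling-like cells Pcdhga10 had 3 and 27 UMIs (8.25 [2.54 to 42.5]) and Pcdhga12 3 and 24 (7.33 [2.23 to 38.0]). In differentiating-like cells Pcdhga10 had 3 and 12 UMIs (2.27 [0.613 to 12.5]), too few to tell. Pcdhb17, whose ratio over the class was below 1 with an interval that held 1, had 29 and 12 UMIs in the stem state. It was at 3.70 and 5.14 CPM there (1.39 [0.646 to 2.81]), again with an interval that held 1. Pcdhgc3 was at 12.1 and 14.1 CPM (1.17 [0.761 to 1.75]). The last 10 gamma A and B genes together stood at 4.08 [3.00 to 5.57] in the stem, 4.78 [2.90 to 8.27] in the cycling and 1.89 [0.974 to 3.96] in the differentiating state.

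By depth, cells of over 10000 UMIs (606 and 335) gave 0.353 [0.273 to 0.453] for beta and 1.73 [1.52 to 1.98] for gamma, and 95.1% (WT) and 85.1% (KO) of the UMIs of the class came from them. Between 5000 and 10000 UMIs the ratios were 0.635 [0.264 to 1.48] and 1.73 [0.988 to 3.13], and between 2000 and 5000 UMIs 0.207 [0.0624 to 0.788] and 1.73 [0.439 to 14.9]. The direction was the same in all 3 ranges, with wide intervals in the shallow ones.

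Transcripts of other cell types were present in these cells, and the sums of several marker lists stood higher in KO. The 16 phagocyte markers summed to 1115 CPM in WT and 5277 CPM in KO myogenic-like cells, with none at 0, and in cells of over 10000 UMIs to 1061 and 2865 CPM. The 6 erythroid markers summed to 42.8 and 752 CPM, with Slc4a1 at 0 in both libraries, and the 12 endothelial markers to 28.8 and 81.2 CPM. The 14 fibroblast markers were at 1640 and 1668 CPM, and the 16 myogenic markers at 3532 and 4341 CPM. Dendritic markers were at 202 and 219 CPM, Schwann or glial markers at 189 and 207 CPM, and tenocyte markers at 137 and 160 CPM. Lists with low sums, each with some markers at 0, were T or NK (2.55 and 8.63 CPM), neutrophil (3.30 and 6.01 CPM) and B or plasma (5.33 and 4.75 CPM). The 12 muscle fibre markers summed to 1609 and 3146 CPM (1620 and 3119 CPM in cells of over 10000 UMIs), the 12 mural markers to 1699 and 2620 CPM (1711 and 2732 CPM), and the 6 platelet markers to 28.9 and 150.3 CPM, with Gp9 at 0 in both libraries. Ckm and Acta1 of the muscle fibre list also mark the differentiating state. Des of the mural list and Chodl of the tenocyte list are also myogenic markers. The sums of these lists thus hold some transcripts of the class itself. The part of the transcripts of other cell types in the beta and gamma ratios was not tested. Free RNA was estimated to make up 0.919% of the WT and 3.43% of the KO UMIs of the class. With it subtracted the ratio was 0.359 [0.283 to 0.451] for beta and 1.65 [1.46 to 1.88] for gamma. The estimate is set by the 1 marker, of 54 in WT and 53 in KO, that was lowest relative to free RNA. By the same rule it was 0% in cycling-like and differentiating-like cells of both libraries. A subtraction this small cannot tell how far free RNA bears on the ratios.

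**Figure D3:**
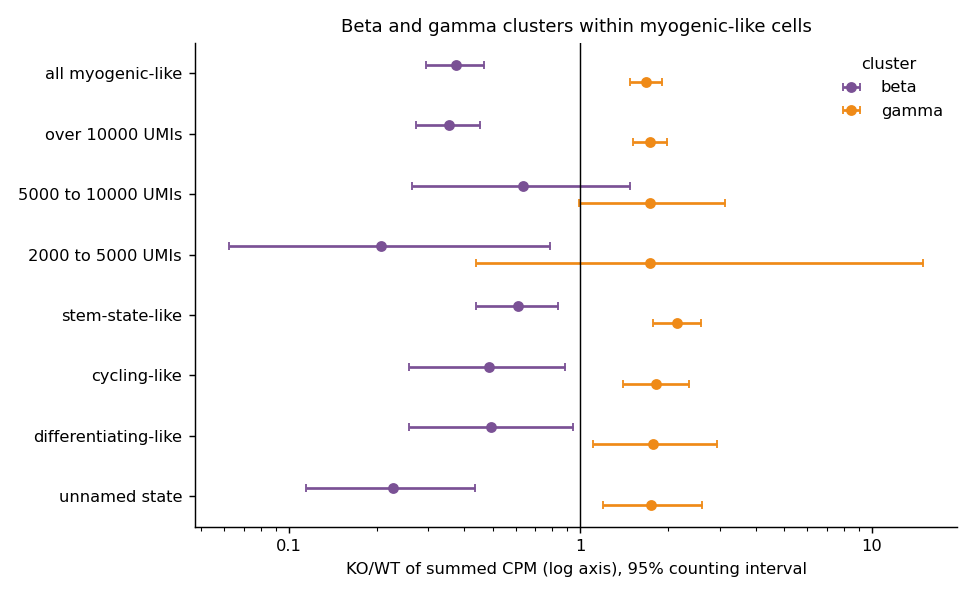
Ratio of KO to WT CPM (log axis, exact 95% intervals) of the beta and of the gamma sum in all myogenic-like cells and in their depth ranges and states, with the unnamed sub-clusters as a state. Every beta point lies below 1 and every gamma point above 1, with wide intervals in the small subsets.

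Shares of cells with a member UMI were compared at equal depth. With every cell thinned to 2000 UMIs, 5.94% of WT [4.31 to 7.95] and 2.08% of KO [1.17 to 3.40] myogenic-like cells had a beta UMI, and 8.06% [6.16 to 10.3] and 9.83% [7.76 to 12.2] a gamma UMI. Without thinning the shares were 33.5% and 10.1% for beta, and 43.7% and 39.5% for gamma, so the gamma order went the other way at unequal depth. Summed over these thinned cells, where every cell weighs alike, the beta ratio was 0.350 [0.180 to 0.644] and the gamma ratio 1.36 [0.971 to 1.93], whose interval held 1. Thinned to 5000 UMIs, which left out 30 WT and 295 KO cells, the shares were 14.5% and 4.68% for beta and 14.9% and 26.7% for gamma. In phagocyte-like cells, where member levels were under those of free RNA, the shares at 2000 UMIs were 0.0518% and 0.186% for beta and 0.363% and 0.583% for gamma.

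Several gamma genes were more often seen in 1 KO cell. With myogenic-like cells thinned to 10000 UMIs, a depth chosen after the data were seen that 606 WT and 335 KO cells reached, 31.2% and 40.6% of cells had at least 1 gamma gene. At least 2 gamma genes were seen in 3.30% of WT [2.03 to 5.05] and 11.9% of KO cells [8.67 to 15.9], and at least 3 in 0 of 606 WT cells, which allows up to 0.607%, and in 2.99% of KO cells [1.44 to 5.42]. At least 1 beta gene was seen in 21.5% and 9.55%, and at least 2 in 2.31% and 0.597%. Fibro-adipogenic-like cells at the same depth had at least 2 gamma genes in 8.85% and 9.48% of cells, and endothelial-like cells in 3.41% and 6.42%. At this depth most cells of each of these classes showed no beta gene, and most showed no gamma gene. The full set of a cell is thus not measured.

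**Figure D4:**
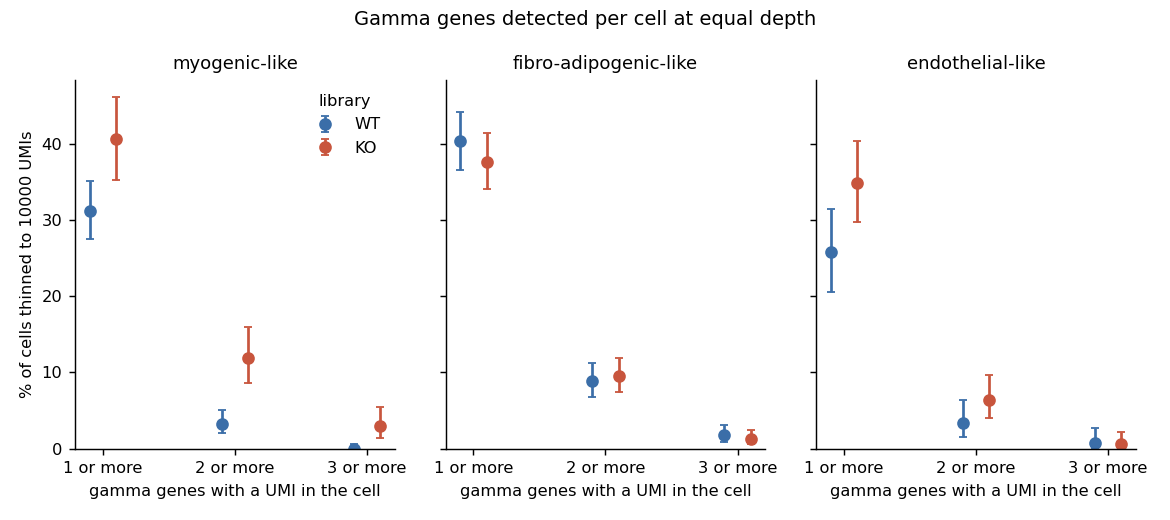
Share of cells (%, exact 95% intervals) with at least 1, 2 or 3 detected gamma genes, after thinning every cell to 10000 UMIs, in 3 cell classes of the WT and KO libraries. In KO myogenic-like cells 11.9% had at least 2 gamma genes, against 3.30% in WT.

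Fibro-adipogenic-like cells, the fibroblast-like progenitors between the fibres, had both families slightly lower in KO. The ratio was 0.847 [0.760 to 0.945] for beta and 0.819 [0.753 to 0.890] for gamma. Here the libraries lie in different clusters: 1 cluster held 699 WT and 676 KO cells, and another, shallow one held 5 and 1270. Within the first the ratio was 0.969 [0.857 to 1.09] for beta and 0.892 [0.811 to 0.981] for gamma, and the KO cells of the second had 18.4 CPM of beta and 22.3 CPM of gamma. In this class phagocyte markers summed to 1651 CPM in WT and 7313 CPM in KO, and their part in the lower sums was not tested. In cells of over 10000 UMIs, where these markers were at 1622 and 2207 CPM, the ratios were 0.924 [0.824 to 1.04] and 0.907 [0.831 to 0.990].

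Of 15 beta and 21 gamma genes with at least 20 UMIs in this class, Pcdhb3, Pcdhga1 and Pcdhga4 (15 and 8, 15 and 11, and 12 and 9 UMIs, named because of their values) stood at 0.5 times WT or less and none at 2 times or more, against backgrounds of 3.79% and 8.79% of all genes and 7.76% and 16.1% of those with 20 to 200 UMIs. Pcdhga10 had 76 and 128 UMIs and the same level in both libraries (4.36 and 4.36 CPM, ratio 1.00 [0.748 to 1.35]). Pcdhga12 did likewise, with 67 and 111 UMIs (0.985 [0.721 to 1.35]), and Pcdhb7 had 15 and 39 UMIs (1.55 [0.833 to 3.02]). Lower in KO were Pcdhga11 (80 and 85 UMIs, 0.632 [0.460 to 0.868]), Pcdhgc3 (187 and 241, 0.766 [0.630 to 0.932]) and Pcdhb19 (55 and 52, 0.562 [0.377 to 0.836]). Of the genes that differed most in myogenic-like cells, Pcdhga10, Pcdhga12 and Pcdhb7 thus had intervals that held 1 here. Pcdhgb8, annotated as a polymorphic pseudogene, had 0 and 10 UMIs and is named because of this.

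Endothelial-like cells, which line the vessels, had beta at a ratio of 1.02 [0.910 to 1.15] and gamma at 1.22 [1.05 to 1.41]. Among cells of over 10000 UMIs the gamma ratio was 1.42 [1.14 to 1.77]. A cluster of shallow cells with 29 WT and 361 KO cells is part of this class, and in the main cluster (892 and 740 cells) gamma stood at 1.32 [1.11 to 1.57]. Of 15 beta genes with at least 20 UMIs 2 stood at 0.5 times WT or less, where 0.797% of all genes and 1.78% of those with 20 to 200 UMIs did. No member stood at 2 times or more (5.34% and 10.2%). The pair were Pcdhb7, with 57 and 30 UMIs (6.66 and 2.98 CPM, 0.447 [0.278 to 0.708]), and Pcdhb21, with 22 and 9 (0.348 [0.141 to 0.786]). They were also the lowest beta genes named by count in myogenic-like cells.

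Of the other beta genes of endothelial-like cells, those with the most UMIs had ratios near 1. Pcdhb14 had 85 and 120 UMIs (1.20), Pcdhb17 64 and 97 (1.29), Pcdhb16 47 and 77 (1.39) and Pcdhb20 59 and 58 (0.836). Among gamma genes, Pcdhga12 had 34 and 72 UMIs (3.97 and 7.15 CPM, 1.80 [1.18 to 2.79]) and Pcdhgc3 32 and 68 (3.74 and 6.75 CPM, 1.81 [1.17 to 2.84]), while Pcdhga10 had 16 and 23 (1.22). Phagocyte markers in this class summed to 2775 and 8327 CPM and in cells of over 10000 UMIs to 3112 and 4031 CPM. In mononuclear phagocyte-like cells the ratios were 1.99 [1.14 to 3.57] for beta and 1.41 [1.04 to 1.91] for gamma, on 20 and 43 and on 75 and 114 UMIs, levels under those of free RNA.

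The rank order of the single genes was also compared between libraries, over the 22 genes of a family. In fibro-adipogenic-like cells Spearman's rho was 0.909 for beta and 0.953 for gamma genes, in endothelial-like cells 0.893 and 0.877, and in myogenic-like cells 0.757 and 0.583. The genes share libraries, depth and, for gamma, exons, and counts in the myogenic class are lower, so these are descriptions and not a test.

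The lists around the locus were described in myogenic-like cells by the same thresholds. Of all genes with at least 20 UMIs in this class 55.2% were higher in KO, 7.56% stood at 2 times or more and 4.49% at 0.5 times or less. Of 30 chromatin regulators known from this locus or from Setdb1 complexes, 23 were higher and 7 lower in KO, with only Atf7ip, the partner that stabilises Setdb1, at 2 times or more (443 and 1176 UMIs, 3.43 [3.08 to 3.84]) and Setdb1 at 0.5 times or less. Smchd1, a silencer of clustered protocadherins, was at 1.20 [1.09 to 1.32], the looping factor Ctcf at 1.34 [1.24 to 1.45], the cohesin subunit Rad21 at 1.16 [1.06 to 1.26], and the DNA methyltransferase Dnmt3b, with 9 and 11 UMIs, at 1.58 [0.595 to 4.32]. The lean of these 30 regulators towards higher values was not particular to the myogenic class. In fibro-adipogenic-like cells 28 were higher and 2 lower, in mononuclear phagocyte-like cells 27 and 3, and in endothelial-like cells 25 and 5. Mural-like cells were closer to even, with 16 higher and 13 lower. Lower outnumbered higher only in the T or NK class, with 12 higher and 15 lower. In myogenic-like cells, of 19 cytoplasmic partners 11 were higher and 8 lower, and the kinase gene Ptk2b stood at 2.25. Of 7 non-clustered protocadherins with at least 20 UMIs 5 were higher and 2 lower, with Pcdh10 (6 and 18 UMIs, 3.88 [1.48 to 11.9]) past the fold. Pcdh1 is counted both here and among the neighbours of the locus. Of 10 classical and related cadherins 5 were higher and 5 lower. Cdh5, a cadherin of endothelial cells, stood at 3.28 in cells whose endothelial markers were also higher, Cdh6 at 0.308 and Fat4 at 0.331.

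Of the 25 genes on either side of the clusters 21 had at least 20 UMIs, of which 16 were higher and 5 lower, with 2 at 2 times or more and none at 0.5 times or less. Of the nearest genes, Taf7, which lies between the beta and gamma clusters, stood at 0.972 [0.820 to 1.15], Diaph1, just past the gamma cluster, at 1.26 [1.07 to 1.47], and Hdac3 at 1.04 [0.905 to 1.20]. Slc25a2, beside Taf7, had 0 and 1 UMI. Past the fold were Cd14, a phagocyte gene (8.42), and Arap3 (2.70). A long non-coding RNA that ends just before the first gamma gene, 3222401L13Rik, had 49 and 117 UMIs (3.09 [2.19 to 4.40]), and BC037039, antisense to Pcdhgc3, had 47 and 22 (0.605 [0.347 to 1.02]). Both were named after their values were seen.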

How the data were processed

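Single-cell RNA-seq was analysed from 1 WT and 1 KO library, made from sorted cells of injured muscle. The authors deposited whole-number UMI counts per gene and barcode, with no normalization and no filter on cells, per the values of the deposited matrices (121703522 UMIs over 2821644 barcodes in WT, 138667420 over 3331422 in KO). GRCm38 and the tools STAR 2.7.8a, STARsolo 2.7.9a and Seurat 4.0.1 appear in the submitters' processing notes. The annotation, and the treatment of strand and of reads matching several genes, were not given in the sources used here.

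Barcodes with at least 2000 UMIs, 300 genes and at most 10% mitochondrial UMIs were kept (8001 WT, 10947 KO). Scrublet's own threshold marked 119 and 0 doublets, and barcodes were removed by score rank instead, 0.8% for each 1000 barcodes (512 and 959), which was decided after seeing that outcome. Both libraries were clustered together in scanpy 1.11.5 (Python 3.11.15): 2000 variable genes without the members, 30 components, 15 neighbours, Leiden resolution 1 (leidenalg 0.10.2), no integration. Classes were assigned by the marker list of which most members, as a share, were above the other cells and present in 10% or more of the cluster. A cluster stayed unnamed with under 3 of them, or when leading genes or depth went against the name. Myogenic-like cells were clustered again and their sub-clusters named likewise; a state name was also withheld where the 10 leading genes held more markers of another class than of the state, or where the median was under 5000 UMIs with no marker of the state among those 10. This rule was chosen after outcomes were seen.

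UMIs were summed per class and library. Poisson intervals of CPM, Clopper-Pearson intervals of shares and conditional binomial intervals of ratios are exact, at 95%, from scipy 1.17.1. Only the coverage of the ratio intervals was tested on simulated data, in which counts were independent. The interval of a ratio of 2 ratios is approximate, on the log scale. UMIs of 1 cell are not independent, so counting intervals are too narrow where few cells hold many UMIs. Of the 55487 identifiers, 55141 were found in GENCODE M21. Members named in a class have at least 10 UMIs over both libraries, at most 25 per class by count, and other names are marked. From the related lists, genes past the fold are named together with 9 fixed genes. The members, lists and markers were chosen with earlier results of these data known.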

Additional observations from a re-analysis of the deposited data

Results flagged for a closer look

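The direction of the KO to WT ratio differed between cell classes, with intervals that lay on opposite sides of 1 in several pairs. The difference between the classes of each such pair was not tested across animals, since each group has 1 library. For beta, mononuclear phagocyte-like cells stood at 1.99, against 0.847 in fibro-adipogenic-like and 0.373 in myogenic-like cells. The phagocyte-like value rests on 20 and 43 UMIs, at levels below those of free RNA. For gamma, endothelial-like cells stood at 1.22, mononuclear phagocyte-like cells at 1.41 and myogenic-like cells at 1.68, each against 0.819 in fibro-adipogenic-like cells.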

How the results depend on the processing

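In myogenic-like cells the beta sum stayed between 0.350 and 0.418 times WT under all 12 alternatives, and the gamma sum between 1.36 and 1.83 times; the lowest, 1.36, came from cells thinned to 2000 UMIs. With that thinning no member kept 20 UMIs, so the counts of 6 beta genes at 0.5 times or less and 7 gamma genes at 2 times or more became 0 and 0, and Pcdhgb2 reversed to 0.490; beta stood at 0.217 in cycling-like and 0.644 in fibro-adipogenic-like cells, and gamma at 0.546 in the latter. With no minimum of UMIs 16 beta genes were at 0.5 times or less, a count for which no share over all genes was taken. The ratio of shares of cells with a gamma UMI, 1.22 at 2000 UMIs, was 2.32 at 1000 and 1.79 at 5000.

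Stem-state-like cells depended most on the choices. Beta, 0.610, became 0.433 with a minimum of 500 UMIs, 0.916 with 5000, 0.987 with no doublet removed and 0.855 with a mitochondrial share of up to 20%. Gamma, 2.15, became 2.70 with 5000 UMIs, 3.26 with a minimum set in each library, 2.90 with no doublet removed, 2.74 with the 20% limit and 3.63 with members left among the variable genes. In fibro-adipogenic-like cells gamma became 0.911 with 5000 UMIs and 0.912 with the minimum set in each library, where beta became 0.948. In cells of over 10000 UMIs, an alternative chosen after seeing the data, gamma became 0.907 there, and beta 1.17 and gamma 1.42 in endothelial-like cells. The cause of these shifts was not tested. Of the other values recomputed, 186 of the sums, counts and shares and 193 of the single genes and list medians stayed within a set limit. For a ratio this limit was the interval of the main value, and counts and medians had fixed limits. Another 7 single genes or medians moved past it and are not listed here.

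No paired analysis was possible because each group has 1 library. Depth limits single genes: most members have under 50 UMIs in a class, and a gene with 10 UMIs shows only large differences. Alpha and gamma genes are read mainly through shared 3′ exons, so their single values rest on an unknown part of their RNA. Animals, preparation and genotype cannot be told apart.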
